A study of Homo sapiens with 8 samples.

Results

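The kallikrein-related peptidases are secreted serine proteases, and 10 of their genes, KLK5 to KLK14, were followed here through 2 ways of lowering the transcription factor ETS1. They were taken by gene symbol, as 10 of the 56638 symbols shared by both count tables, and every one of the 10 had a row in each table. The set was picked knowing that KLK10 moved in opposite directions in the 2 knockdowns, so the KLK10 values are given as a description with no test. The other 9 genes are in the set through their family name.

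Kallikreins are made as inactive proenzymes and switch one another on by proteolytic cleavage. In stratified epithelium they shed the outermost cells by cutting the desmosomal proteins that join them, they are held in check by inhibitors of the SPINK and serpin families, and in tumours they can also cleave matrix proteins and protease-activated receptors. KLK5 has trypsin-like activity and is placed at the head of the epidermal activation cascade, whereas KLK7 has chymotrypsin-like activity. ETS1 is a transcription factor of the ETS family, whose members bind DNA around a GGAA core.

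All libraries came from SCC25, an established human line from a squamous cell carcinoma of the tongue, grown with 10% FBS and 400 ng/ml hydrocortisone. ETS1 was lowered either transiently with a pool of ETS1 siRNA, set against an siRNA control, or stably with a lentiviral hairpin (shETS1), set against a control hairpin (shCON). The stable lines were selected with 2 ug/ml puromycin. Each of the 4 groups had 2 libraries. shETS1 stands for 1 hairpin, and whether a hairpin line was a clone or a pool of infected cells is not stated. The study's methods call the siRNA replicates biological, but nothing says so of the hairpin libraries, whose p-values then measure only the spread between these samples, which may be technical.

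Libraries held 15954616 to 25953213 counts. ETS1 itself was counted 5726 and 3977 times in the siRNA control libraries against 299 and 268 after ETS1 siRNA, and 2069 and 1871 times in shCON against 224 and 279 in shETS1. Its log2 fold change was -4.13 ± 0.19 (SE) after siRNA (adjusted p 0.00017) and -2.89 ± 0.10 after shRNA (adjusted p 3.8e-13, both edgeR quasi-likelihood test), and the levels in the knockdown libraries did not overlap the control levels. The 10 squamous epithelial markers (KRT5, KRT14, TP63 and others) all had counts in each group. Their summed level is given in CPM (counts divided by the scaled library size). It was 16600 to 21500 in the siRNA control, 24700 to 28700 after ETS1 siRNA, 16200 to 16300 in shCON and 26700 to 27100 in shETS1. After siRNA none of the 10 passed adjusted p under 0.1 by edgeR, beside 3.41% of all genes. KRT5, KRT14, KRT17 and SFN had an unadjusted p under 0.05 there, all higher. After shRNA 7 of the 10 were higher (log2 fold change of KRT5 0.77, KRT17 1.17) and 3 lower (TP63 -0.40, KRT8 -0.25 and SFN -0.17). Of all genes, 29.7% were higher and 30.9% lower after shRNA. The 3 endothelial markers summed to at most 0.756 CPM and the 5 immune markers to at most 4.01 CPM. Within these 2 lists, CD3E was at 0 in all groups but shETS1 and PECAM1 at 0 in all 4, while others had counts. PTPRC was at 0 in both siRNA groups but had 7 and 5 counts in shCON and 11 and 10 in shETS1. CD14 had 15 to 82 counts per library, and VWF was counted in every group. Fibroblast markers summed to 240 to 267 CPM in shCON and 1980 to 2080 CPM in shETS1, and to 179 to 206 CPM in the siRNA control and 279 to 323 CPM after ETS1 siRNA. Structural RNAs such as RN7SK took 5.61 to 6.63% of counts in shCON and 9.64 to 12.3% in shETS1, but at most 0.00339% in the siRNA libraries. Mitochondrial genes took 0.508 to 0.82% of counts in the hairpin libraries and 0% in the siRNA libraries. Whether the 2 tables differ here through the RNA or through how they were made was not tested. The part of these shifts in the kallikrein results was not tested either. CPM levels were therefore compared between groups only within a table, while orders and shares of the members are set side by side.

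The 10 genes form 1 uninterrupted run on chromosome 19, from 51446559 to 51587502 in GRCh37, 140944 bases long. They lie in the order KLK5 to KLK14 by rising coordinate, and all are read from the minus strand. Several share sequence with another transcript. KLK8 and KLK9 overlap by 204 exonic bases on the same strand, and an unnamed protein-coding readthrough gene covers 747 exonic bases of KLK8 and 1390 of KLK9. Antisense long non-coding RNAs overlap exons of KLK5, KLK6, KLK10 and KLK12, by 202, 401, 240 and 160 bases for the longest overlap of each. Whether reads were counted by strand is not stated, so the counts of these genes, and above all the split between KLK8 and KLK9, are uncertain to that extent.

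The promoter sequences are shown because ETS1 is an ETS factor and these genes sit in 1 run. RefSeq promoter windows, 250 bases before to 50 after a transcription start (build GRCh38.p14), were found for 9 of the 10 genes in 16 windows, and each was located in GRCh37 by an exact, single match. KLK8 was the gene without a window, so nothing is said of its promoter. The ETS core GGAA, searched on both strands (as GGAA or TTCC), was present in 95.5% of all 35116 promoter windows, at a mean of 3.51 copies. The 2 overlapping KLK10 windows held 9 and 7 copies, counts that 1.63% and 8.29% of all windows reached or passed, and the KLK12 window, of a gene without detectable transcript here, held 7. KLK14 held 6 in 2 of its 3 windows and 4 in the other, KLK5 and the upstream KLK13 window held 5, and KLK6 and KLK9 held 4. The KLK11 windows held 4 and 2, the 3 KLK7 windows 2 or 3, and the downstream KLK13 window 1. The longer ETS word CCGGAA, or TTCCGG on the other strand, contains the core and was present in 17.2% of all windows. Of the 9 genes, 5 had it in a window: KLK5 (2 copies), KLK6, KLK10, KLK12 and KLK13. Some genes have several windows, so this count by gene cannot be set against the share by window. The AP-1 word TGANTCA, where N is any base, was in 7.71% of all windows and in none of the 9 genes' windows. A match describes letters in a window and is not evidence of binding. Below are the stretches before the KLK5 start at 51456294 and the downstream KLK10 start at 51522965, on the minus strand from 5′ to 3′, trimmed to bases outside every annotated exon. Capitals mark each GGAA core and each longer CCGGAA word on either strand.
KLK5, chr19:51456350-51456544: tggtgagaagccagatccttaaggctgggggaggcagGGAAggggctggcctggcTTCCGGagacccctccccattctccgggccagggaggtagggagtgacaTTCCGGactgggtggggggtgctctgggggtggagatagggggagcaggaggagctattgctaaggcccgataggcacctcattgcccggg
KLK10, chr19:51522966-51523075: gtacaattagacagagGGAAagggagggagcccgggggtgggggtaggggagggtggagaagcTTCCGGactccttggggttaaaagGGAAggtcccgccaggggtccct
The longer word lies at -195 and -146 relative to the KLK5 start and at -47 relative to the KLK10 start. The 3 genes below also carry it, shown as 30-base windows in the same build and orientation with the word in capitals.
KLK6, chr19:51472966-51472995: cccgcctgcccgCCGGAAgagaggttgagg
KLK12, chr19:51538300-51538329: ccttcccttaacCCGGAAactggatgggcc
KLK13, chr19:51568387-51568416: cagacgcggaggTTCCGGgcacgccctcaa

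KLK5 was the most abundant kallikrein of SCC25 by a wide margin in every library. Per kilobase of exon, its mean level in the siRNA control was 33.5 ± 4.56 CPM (SD, n = 2), followed by KLK8 at 4.68 ± 0.429, KLK10 at 4.25 ± 0.193 and KLK7 at 4.11 ± 0.312, and these 3 did not differ from one another beyond the spread, whereas KLK5 above and KLK9 below them did. The closeness of KLK8, KLK10 and KLK7 holds over all exons only. With the canonical transcript KLK8 stood at 9.54, above KLK10 at 5.41 and KLK7 at 5.15 CPM per kilobase. Over all exons, KLK9 came next at 2.21 ± 0.415 and KLK6 at 1.13 ± 0.349. KLK14 at 0.601 ± 0.108, KLK11 at 0.487 ± 0.162 and KLK13 at 0.329 ± 0.08 CPM per kilobase made the tail. The spread of KLK11 overlapped those of KLK14 and KLK13, while the spreads of KLK14 and KLK13 did not overlap each other. The order of the tail depends on the transcript length used: with the canonical transcript in place of all exons, KLK11 moves above KLK14.

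In shCON, KLK5 had 127 ± 8.57 CPM per kilobase, then came KLK7 at 6.10 ± 0.0564, KLK8 at 5.22 ± 0.715, KLK9 at 2.40 ± 0.111, KLK10 at 2.27 ± 0.0150 and KLK6 at 0.842 ± 0.0233. Only KLK11 of the rest exceeded 0.2, at 0.408 CPM per kilobase. With the canonical transcript lengths, KLK8 moves above KLK7 and KLK10 above KLK9. KLK12 had no counts in 7 libraries and 1 count in the other (shCON replicate 2), so its level was not detectable at a floor of 3 counts, equal to 0.116 to 0.187 CPM per library.

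As a share of all counts of the 10 genes, KLK5 took 53.4 to 57.2% in the 4 siRNA libraries and 83.7 to 85.4% in the 4 shRNA libraries. KLK10 took 17.1 and 15.7% in the siRNA control and 24.4 and 21.3% after ETS1 siRNA, but 3.59 and 3.32% in shCON and 1.56 and 2.2% in shETS1. KLK7 took 10.4 and 9.99% in the siRNA control and 5.95 and 7.20% after ETS1 siRNA. These shares are within a library and do not depend on scaling.

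**Figure D1:**
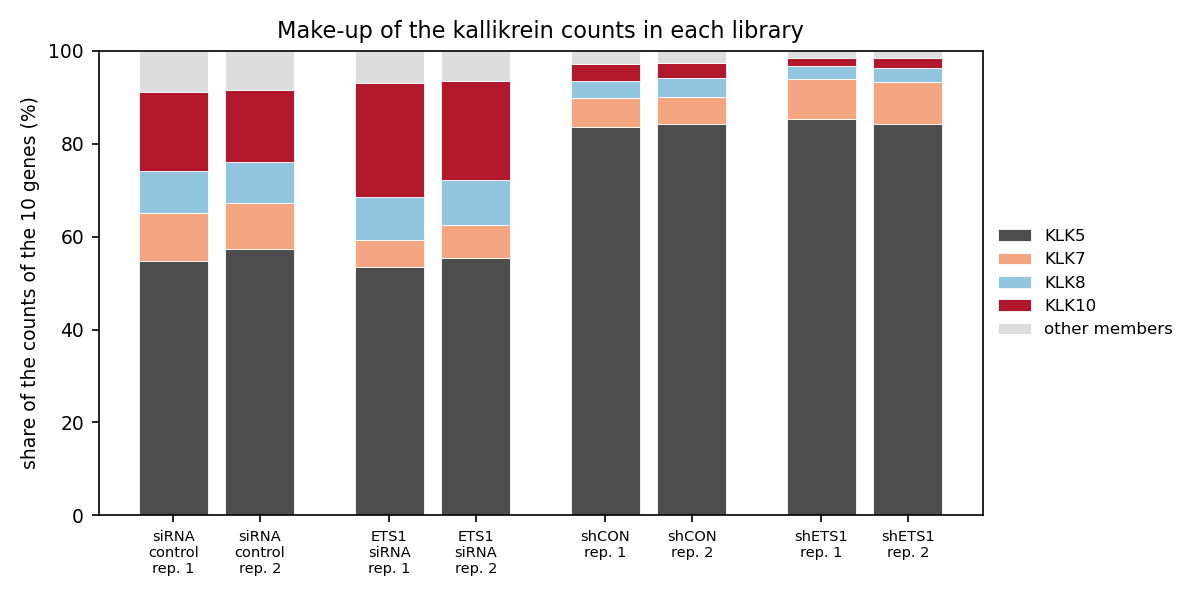
Stacked bars give the share of the counts of the 10 kallikrein genes in each of the 8 libraries, as percent of their sum, with KLK6, KLK9, KLK11, KLK12, KLK13 and KLK14 pooled as other members. KLK5 takes 53.4 to 57.2% of the siRNA-table bars and 83.7 to 85.4% of the shRNA-table bars, and the KLK10 segment widens after ETS1 siRNA and narrows in shETS1.

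KLK10, a family member first known for its loss in breast cancer cells, moved against its own control in opposite directions. It was counted 310 and 267 times in the siRNA control libraries, or 15.6 and 16.7 CPM, and 608 and 693 times after ETS1 siRNA, or 35.4 and 34.1 CPM. Both knockdown values lie above both control values, and the fitted change was 2.15-fold, a log2 fold change of 1.11 ± 0.14 (SE).

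In the hairpin libraries KLK10 was counted 216 and 225 times in shCON, or 8.59 and 8.67 CPM, and 81 and 110 times in shETS1, or 3.53 and 4.36 CPM. The shETS1 libraries are both below the shCON libraries, by a log2 fold change of -1.12 ± 0.15, and the control level was 2.18 times the knockdown level. The change after shRNA minus that after siRNA was -2.25 ± 0.19 on the log2 scale. KLK10 was the gene for which the set was chosen, so no test is given, and its values did not turn around in any of the alternatives computed (log2 fold changes of 1.06 to 1.15 after siRNA and -1.29 to -0.99 after shRNA).

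**Figure D2:**
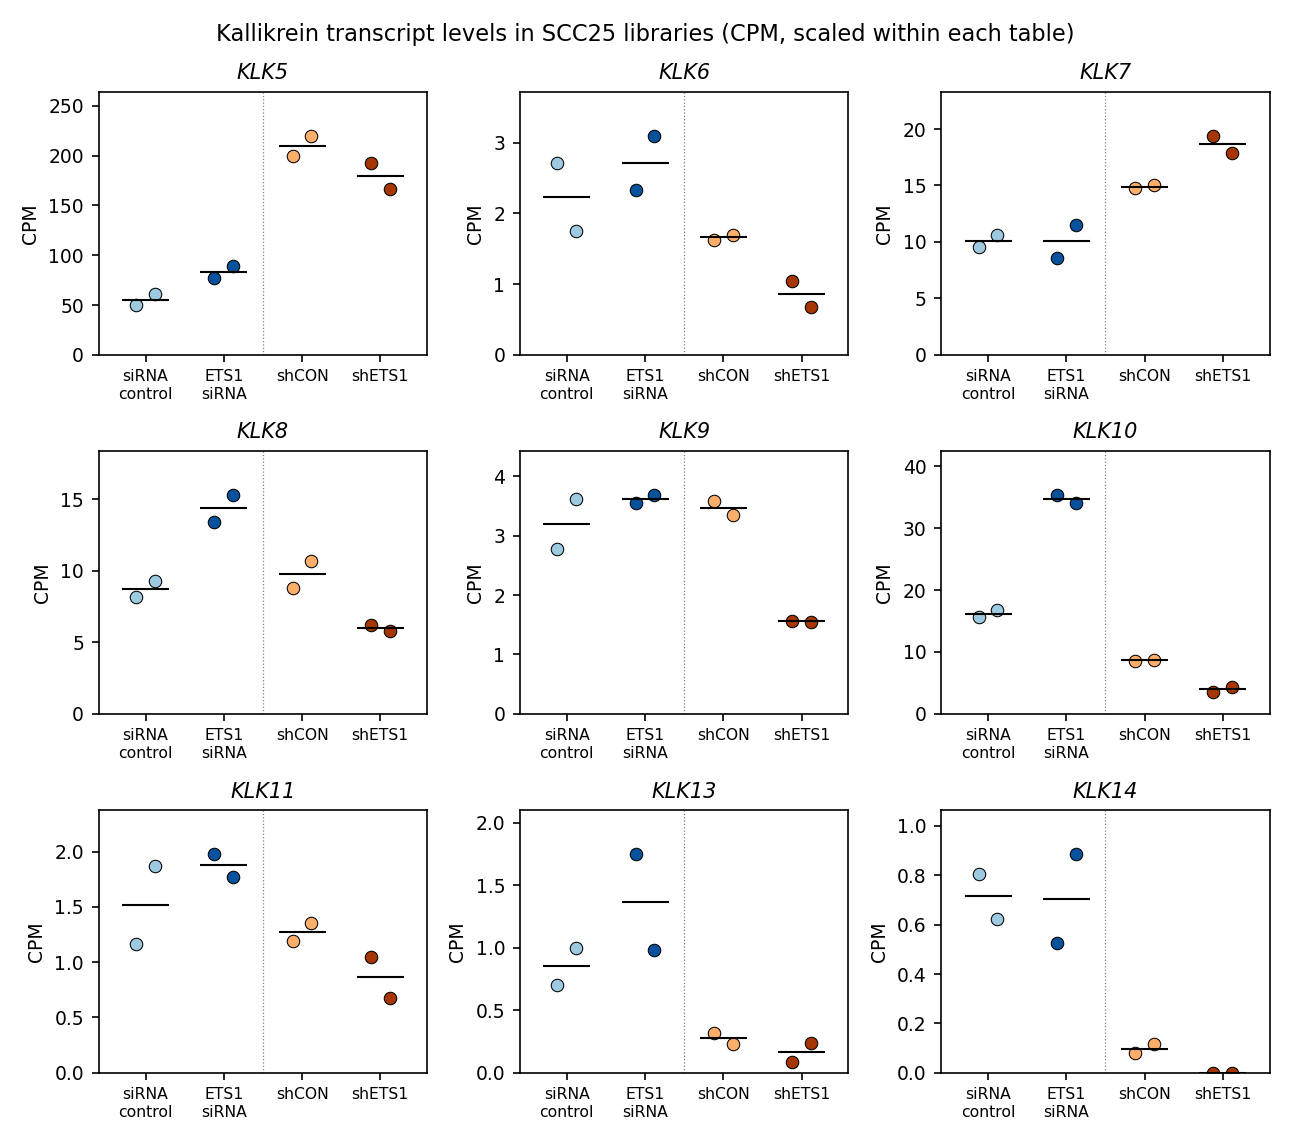
Levels of 9 kallikreins in CPM (linear axes starting at 0), 1 panel per gene, with 1 point per library, a line at each group mean, and a dotted line between the siRNA table and the shRNA table, which were scaled separately. KLK10 goes up from 15.6 and 16.7 to 35.4 and 34.1 CPM after ETS1 siRNA and down from 8.59 and 8.67 to 3.53 and 4.36 CPM in shETS1, and only KLK7 is higher in both shETS1 libraries than in both shCON libraries.

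After ETS1 siRNA, 8 of the 9 genes other than KLK10 could be tested and 2 were higher at adjusted p under 0.1, KLK5 and KLK8, with none lower by edgeR, none lower at an unadjusted p under 0.05 and none lower by DESeq2, which called the same 2 genes of these 8. Of all 14742 genes tested, 3.41% passed, 1.13% higher and 2.27% lower. The set was picked from this comparison, so nothing is read from the share of members. Over these 8 members the median log2 fold change stood at 0.30, against 0.0018 over all genes. In CPM, KLK5 and KLK8 were also the 2 of the 8 whose knockdown libraries lay above both controls, which 25.7% of all genes tested did, with 26.2% lying below.

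KLK5 had 994 and 974 counts in the siRNA control (50.1 and 60.7 CPM) and 1329 and 1801 after ETS1 siRNA (77.3 and 88.7 CPM). Its log2 fold change was 0.58 ± 0.14 (SE), adjusted p 0.097 by edgeR. KLK8, a trypsin-like enzyme found in skin and brain, had 162 and 149 counts (8.16 and 9.29 CPM) in the control and 230 and 311 (13.4 and 15.3 CPM) after ETS1 siRNA, a log2 fold change of 0.72 ± 0.17 with adjusted p 0.093. In both genes the groups did not overlap.

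Both calls sat close to the threshold and were each lost in 5 of 15 alternatives. Without siRNA control replicate 1, the log2 fold change of KLK5 was 0.45 (adjusted p 0.72) and of KLK8 0.63 (adjusted p 0.64). Without ETS1 siRNA replicate 2 the values were 0.48 (adjusted p 0.17) and 0.62 (adjusted p 0.19), and without siRNA control replicate 2 KLK8 was 0.82 with adjusted p 0.10.

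KLK7 did not pass. Its counts were 189 and 170 in the siRNA control (9.52 and 10.6 CPM) and 148 and 234 after ETS1 siRNA (8.61 and 11.5 CPM), and the log2 fold change was 0.01 ± 0.19, with a 95% interval from -0.43 to 0.45 (adjusted p 0.99). KLK9, little studied and chymotrypsin-like, stood at 2.77 and 3.62 CPM against 3.55 and 3.69 CPM. The difference was 0.19 ± 0.25 (adjusted p 0.73). KLK6, a trypsin-like enzyme abundant in brain, was 0.27 ± 0.32 (adjusted p 0.69) from 54 and 28 counts against 40 and 63, so the libraries of the 2 groups interleaved.

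KLK11, also trypsin-like, had 23 and 30 counts in the siRNA control and 34 and 36 after ETS1 siRNA, a log2 fold change of 0.32 ± 0.34 with adjusted p 0.66. KLK13 had 14 and 16 counts against 30 and 20 (0.68 ± 0.42, adjusted p 0.43). KLK14, a strongly active epidermal trypsin-like member, had 16 and 10 counts against 9 and 18 (-0.01 ± 0.44, adjusted p 0.99). At these depths the 95% intervals were wide, from -0.29 to 1.65 for KLK13 and -1.03 to 1.00 for KLK14, so a change within them was not detectable.

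After shRNA, 6 of the 9 genes other than KLK10 could be tested, and 5 passed: KLK5, KLK6, KLK8 and KLK9 were lower and KLK7 was higher. The background here was high, and here too the set was picked from the comparison, so nothing is read from the share of members: 60.6% of all 16481 genes tested passed, 29.7% higher and 30.9% lower. Over these 6 members the median log2 fold change stood at -0.63, against 0.00066 over all genes. In CPM the libraries of the 2 groups did not overlap for 5 of the 6 on the lower side, the 4 above and KLK11, and for KLK7 on the higher side. Of all genes tested, 38.6% lay apart on the lower and 38.1% on the higher side.

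KLK9 had 90 and 87 counts in shCON (3.58 and 3.35 CPM) and 36 and 39 in shETS1 (1.57 and 1.55 CPM). Its log2 fold change was -1.15 ± 0.22 (adjusted p 0.00025 by edgeR), and the groups did not overlap. KLK8 had 221 and 277 counts (8.79 and 10.7 CPM) in shCON and 143 and 146 (6.23 and 5.79 CPM) in shETS1, a log2 fold change of -0.70 ± 0.14 with adjusted p 0.00051. Both kept their call in all 15 alternatives computed. KLK8 and KLK9 share exonic bases, so their counts are not independent of each other.

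KLK6 had 41 and 44 counts in shCON (1.63 and 1.70 CPM) and 24 and 17 in shETS1 (1.05 and 0.674 CPM). The log2 fold change was -0.96 ± 0.31 (adjusted p 0.014), but it missed the threshold in DESeq2 (adjusted p 0.12) and without shETS1 replicate 2, at -0.67 with adjusted p 0.14. KLK5 had 5034 and 5715 counts in shCON (200 and 220 CPM) and 4421 and 4213 in shETS1 (193 and 167 CPM), which is a small fall of 0.23 on the log2 scale (± 0.08, adjusted p 0.027). It was lost without shCON replicate 2 (-0.15, adjusted p 0.25), without shETS1 replicate 2 (-0.13, adjusted p 0.20) and with all 8 libraries in 1 fit (-0.24, adjusted p 0.13).

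Of the 6 tested members, KLK7 alone rose, from 373 and 390 counts in shCON (14.8 and 15.0 CPM) to 445 and 451 in shETS1 (19.4 and 17.9 CPM). Its log2 fold change of 0.32 ± 0.10 (adjusted p 0.016) shrank to 0.19 (adjusted p 0.12) with library size as the only scaling, a setting that moved the median of all genes from 0.00066 to -0.12, and it also missed the threshold with all 8 libraries in 1 fit (0.30, adjusted p 0.12). KLK11 had 30 and 35 counts in shCON against 24 and 17 in shETS1 and did not pass (-0.57 ± 0.33, adjusted p 0.15, 95% interval -1.27 to 0.12). With library size only it did, at -0.70 with adjusted p 0.090, and so it did without shETS1 replicate 1, at -0.92.

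The 3 remaining genes were too low to test after shRNA. KLK13 had 8 and 6 counts in shCON and 2 and 6 in shETS1. KLK14 had 2 and 3 counts in shCON and none in either shETS1 library, where a count of 0 allows a level of up to 0.131 and 0.119 CPM, so no fold is given.

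**Figure D3:**
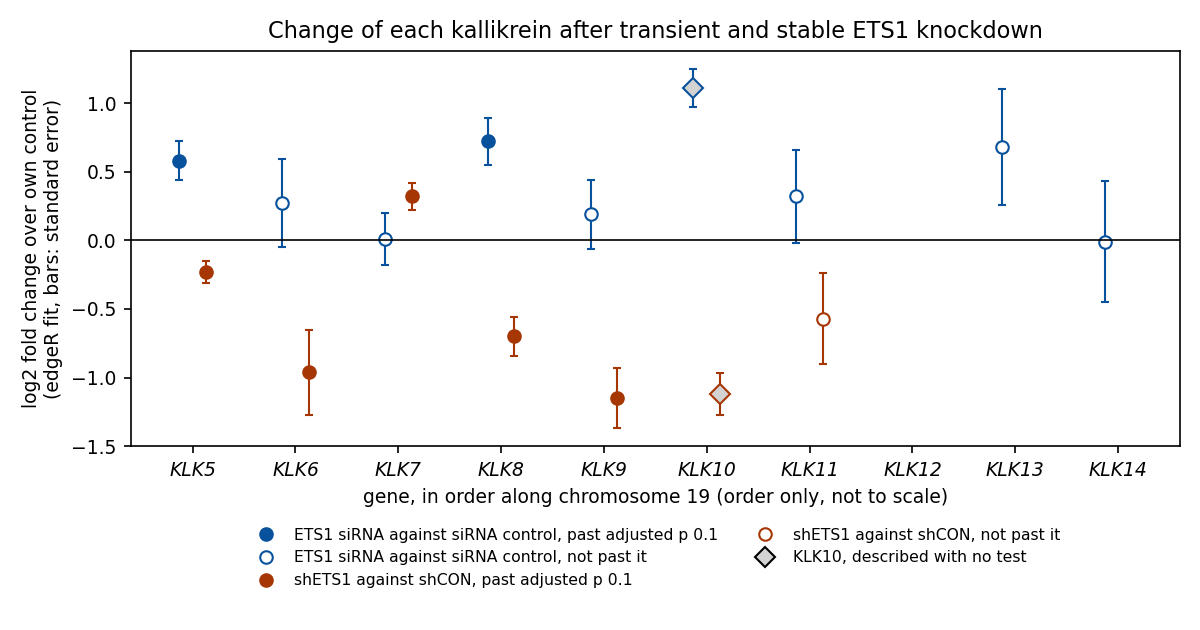
Log2 fold change over its own control for each kallikrein, in gene order along the chromosome, with standard errors from the edgeR fit; blue is siRNA, brown is shRNA, filled circles passed adjusted p 0.1, open circles did not, and grey diamonds are KLK10, described with no test. KLK5, KLK6, KLK8, KLK9, KLK10 and KLK11 lie above 0 in blue and below 0 in brown, and KLK7 lies above 0 in brown (0.32) and at 0.01 in blue. The blue circles of KLK6, KLK9 and KLK11 are open, as is the brown circle of KLK11.

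The change after shRNA minus the change after siRNA was tested in 1 fit over all 8 libraries, for 8 genes, since KLK12 was too low and KLK10 is described only. The difference was negative and passed for KLK5 (-0.83 ± 0.17, adjusted p 0.0056), KLK8 (-1.44 ± 0.21, adjusted p 0.00083) and KLK9 (-1.36 ± 0.29, adjusted p 0.0061), all by edgeR, and these 3 held in all 17 alternatives. KLK6 also passed at -1.25 ± 0.44 (adjusted p 0.059) but lost the call in 7 of 17 alternatives, among them leaving out siRNA control replicate 2, ETS1 siRNA replicate 2, shETS1 replicate 2 or either shCON library (-0.97 to -1.28). KLK7 did not pass (0.29 ± 0.21, adjusted p 0.36, 95% interval -0.18 to 0.76), though it did without ETS1 siRNA replicate 2 (0.51, adjusted p 0.071), nor did KLK11 (-0.92 ± 0.47, adjusted p 0.18) or KLK13 (-1.40 ± 0.79, adjusted p 0.22). KLK14 also passed, but both hairpin groups were at or under 3 counts per library, where the fitted size depends on the prior count, so it is not given. Leaving out KLK10 and KLK14, 4 of 7 genes passed on the negative side and none on the positive side (none at an unadjusted p under 0.05). DESeq2 called 3 of the 4, without KLK6, and likewise none on the positive side. Of all 17190 genes tested, 34.8% passed, 19.7% negative and 15.1% positive, and as the set was picked for a difference between the knockdowns, nothing is read from this comparison of shares. The median over the 7 genes was -1.25, against -0.02 over all genes.

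Ratios of counts within a library do not depend on scaling. For ratios to KLK10 the direction in each table follows from the choice of the set. KLK7 had 0.610 and 0.637 counts for each KLK10 count in the siRNA control, and 0.243 and 0.338 after ETS1 siRNA. In shCON the ratio was 1.73 and 1.73, and in shETS1 5.49 and 4.10. KLK7 per KLK8 count stood at 1.17 and 1.14 against 0.643 and 0.752 in the siRNA table and at 1.69 and 1.41 against 3.11 and 3.09 in the shRNA table. This second ratio was below its control in both libraries after siRNA and above it in both after shRNA. KLK9 per KLK8 count, in contrast, was lower than its control in both tables: 0.340 and 0.389 against 0.265 and 0.241 in the siRNA table, and 0.407 and 0.314 against 0.252 and 0.267 in the shRNA table.

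KLK8 per KLK5 count was slightly above its control in the siRNA table: 16.3 and 15.3 KLK8 counts for every 100 of KLK5 in the siRNA control, 17.3 and 17.3 after ETS1 siRNA. With the hairpins it was below its control in both libraries, at 4.39 and 4.85 (shCON) and 3.23 and 3.47 (shETS1). KLK10 ran at 31.2 and 27.4 counts per 100 of KLK5 in the siRNA control and 45.7 and 38.5 after ETS1 siRNA. With the hairpins it ran at 4.29 and 3.94 (shCON) and at 1.83 and 2.61 (shETS1).

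The other kallikreins of the same region, KLK1, KLK2, KLK3, KLK4 and KLK15, were nearly silent. KLK2, KLK3 and KLK4 (KLK3 encodes prostate-specific antigen) had no count in any of the 8 libraries, and KLK15 had at most 1. KLK1, tissue kallikrein, had 27 and 29 counts in the siRNA control and 22 and 26 after ETS1 siRNA (log2 fold change -0.30 ± 0.33, adjusted p 0.68), and at most 2 in any hairpin library.

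Among all 33 protein-coding genes within 500 kb of the run, 9 could be tested after siRNA and none passed by edgeR, beside 3.41% of all genes. Of the 9, 2 (CLEC11A and ETFB) had an unadjusted p under 0.05 and 1 (ETFB) passed by DESeq2. After shRNA 8 could be tested and 5 passed, all higher, where 60.6% of all genes passed and 29.7% were higher: FAM71E1 (0.57 ± 0.08), ETFB (0.53 ± 0.09, an electron transfer flavoprotein), EMC10 (0.31 ± 0.08), JOSD2 (0.41 ± 0.11) and CTU1 (0.44 ± 0.14). CTU1 missed the threshold without shCON replicate 1 (0.34, adjusted p 0.13) and with all 8 libraries in 1 fit. The difference between the knockdowns was tested for 11 of the 33, and none passed by edgeR, beside 34.8% of all genes. None of the 11 had an unadjusted p under 0.05 and none passed by DESeq2. FAM71E1, EMC10 and JOSD2 lie on the KLK5 side of the run, CTU1 and ETFB on the KLK14 side.

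The kallikreins' regulators and partners were taken as lists, chosen with earlier results of these data known. Of 16 protease inhibitors, 9 could be tested after siRNA and none passed by edgeR, beside 3.41% of all genes. None of the 9 had an unadjusted p under 0.05 and none passed by DESeq2. After shRNA, 6 of 13 were higher and 3 lower by edgeR, and 4 higher and 3 lower by DESeq2, beside 29.7% higher and 30.9% lower of all genes by edgeR. SLPI, a secreted inhibitor of serine proteases, was 1.84 ± 0.08 (adjusted p 1.1e-11), SPINK6, an inhibitor of several kallikreins, 0.86 ± 0.09 (adjusted p 4e-07), and SPINT2 0.36 ± 0.08 (adjusted p 0.00088). SERPINB3 was -1.05 ± 0.10 (adjusted p 2e-07) and SERPINB4 -0.79 ± 0.14 (adjusted p 0.00014). SPINK5, which encodes the epidermal kallikrein inhibitor LEKTI, was 0.34 ± 0.16 after shRNA (adjusted p 0.082) and -0.09 ± 0.20 after siRNA (adjusted p 0.86).

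Of 14 other epidermal and membrane proteases, 11 were tested after siRNA, where 3.41% of all genes passed. CTSV, cathepsin V, alone of the 11 passed, at 0.59 ± 0.14 (adjusted p 0.093). It was also 0.59 ± 0.08 after shRNA (adjusted p 3.6e-06), where 6 of 12 were higher and 4 lower, so 10 of 12 passed beside 60.6% of all genes. The higher ones included TMPRSS13 (3.0 ± 0.16) and TMPRSS11E (1.93 ± 0.10), 2 membrane-anchored serine proteases. Among the lower ones, TMPRSS4 was -2.04 ± 0.15, PRSS8 (prostasin) -0.40 ± 0.13 (-0.31, adjusted p 0.15, without shCON replicate 2) and ST14 (matriptase, which can activate epidermal pro-kallikreins) -0.27 ± 0.08 (adjusted p 0.12 with all 8 libraries in 1 fit).

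Of 15 proteins that kallikreins cleave or act on, 11 were tested after siRNA, where 3.41% of all genes passed. IL1B, encoding interleukin-1β, was the only one of the 11 to pass by edgeR and fell by 0.70 (± 0.14, adjusted p 0.063). At an unadjusted p under 0.05 there were 3, all lower, and DESeq2 called IL1B and DSG2 (-0.61 ± 0.15, adjusted p 0.11 by edgeR). Both CTSV and IL1B lost the call after siRNA without siRNA control replicate 1 (adjusted p 0.69 and 0.22), without siRNA control replicate 2 (0.13 and 0.15) and without ETS1 siRNA replicate 2 (0.14 and 0.10). After shRNA 5 of 13 were higher and 6 lower, beside 29.7% and 30.9% of all genes. Of the 6 desmosomal cadherins in the list, DSG1 (2.96 ± 0.12), DSG3 (1.43 ± 0.09, also among the squamous markers), DSC1 (1.38 ± 0.29), DSC2 (0.69 ± 0.08) and DSC3 (0.55 ± 0.08) were higher, and DSG2 was lower (-0.47 ± 0.08, adjusted p 0.00016). IL1B (-3.46 ± 0.10), the urokinase receptor PLAUR (-1.38 ± 0.12) and urokinase PLAU (-0.83 ± 0.09) were lower. The granular layer markers, from the layer in which KLK5 and KLK7 are normally made, summed to 48.4 to 49.0 CPM in shCON and 66.7 to 69.9 CPM in shETS1, and to 37.3 to 46.2 CPM in the siRNA control and 53.7 to 63.7 CPM after ETS1 siRNA, with LOR at 0 in every group. After siRNA none of the 4 tested passed by edgeR, beside 3.41% of all genes, while KRT10 and SPRR1B had an unadjusted p under 0.05, both higher. Within the list the genes went both ways after shRNA, with 3 of 6 tested higher (KRT1 2.13, TGM1 0.82 and IVL 0.66) and 2 lower (FLG -1.19 and SPRR1B -0.77), beside 29.7% and 30.9% of all genes. Their part in the kallikrein changes was not tested. In bulk RNA, fewer cells that make a transcript and less of it per cell cannot be told apart.

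**Figure D4:**
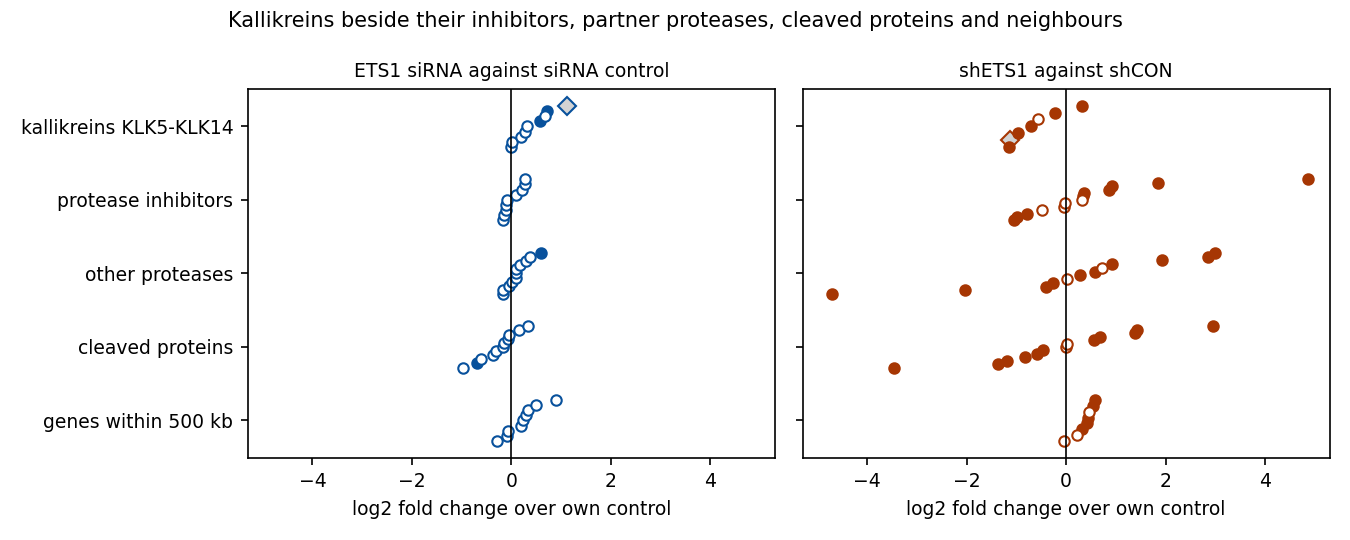
Each point is the log2 fold change of 1 tested gene over its own control, by list (kallikreins, inhibitors, other proteases, cleaved proteins, genes within 500 kb), after siRNA on the left and shRNA on the right, filled where it passed adjusted p 0.1 and open where it did not, with grey diamonds for KLK10. The kallikreins reach from -0.01 to 1.11 on the left and from -1.15 to 0.32 on the right, while on the right TMPRSS13 lies at 3.0 and IL1B at -3.46.

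Of the 14038 genes tested in both comparisons, 394 passed in both. Of these, 75 were higher after siRNA and lower after shRNA, and 60 were higher in both. Another 89 were lower after siRNA and higher after shRNA, and 170 were lower in both. KLK10, whose directions are those of the 75, is in these counts, so they are no test of it. By the distance between their pair of log2 fold changes and that of KLK10, over the 10046 non-members whose mean reached 5 CPM in both tables, the nearest were TMEM200B (1.04 after siRNA and -1.14 after shRNA), RMI2 (1.05 and -0.96), MT1E (0.88 and -1.22, a metallothionein), MAOB (0.80 and -1.08, monoamine oxidase B) and MDFIC (1.00 and -0.78). These 5 were picked for being alike in these values and no test is given. KLK8, at 0.72 and -0.70, was the kallikrein nearest to KLK10 in this pattern.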

How the data were processed

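RNA from SCC25 cells was sequenced as 50-base single-end reads. The authors aligned them with TopHat2 (2.1.1) and Bowtie2 (2.2.6) to GRCh37, per the submitters' processing notes, and deposited raw counts per Ensembl gene, made with featureCounts (1.5.0), in 1 table for the siRNA and 1 for the shRNA libraries. Strand and multi-mapping settings are not given in the sources used here.

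The 2 groups of each table were compared with edgeR (4.0.16, R 4.3.3): TMM scaling, filterByExpr, the quasi-likelihood F-test, two-sided, and Benjamini-Hochberg over all genes tested, called at adjusted p under 0.1. The difference between knockdowns was a contrast in 1 fit of all 8 libraries. CPM used the scaled library sizes. DESeq2 (1.42.0), other scalings and filters, a replicate block and leaving out each library were alternatives. On simulated data, 66.3% of 2-fold changes were recovered with siRNA-like counts (18.8% of calls false, 14477 genes) and 85.3% with shRNA-like counts (15.5% false, 16120 genes), with a nominal 10%. Only 196 and 191 of these genes were changed in the simulations. In the real shRNA comparison 60.6% of genes passed, so the simulated rates may not hold there.

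Named by rule were all 10 members, ETS1, the other kallikreins, neighbours that passed and averaged 5 CPM or more, in each other list up to 3 genes per direction of smallest adjusted p among those that passed with at least 5 CPM, and the 5 genes nearest KLK10. CLEC11A, SPINK5, DSG2, DSC1, DSC3, the single marker genes and KLK8 as the nearest kallikrein were named after their values were seen. Members and lists were chosen with earlier results of these data known.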

Additional observations from a re-analysis of the deposited data

Results flagged for a closer look

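Leaving out KLK10 and KLK14, the change after shRNA differed from that after siRNA for 4 of 7 kallikreins by the test of the difference itself. Of all genes tested, 34.8% passed, 19.7% negative. The set was picked for a difference between the knockdowns, so nothing is read from these shares. The differences were -0.83 for KLK5, -1.25 for KLK6, -1.44 for KLK8 and -1.36 for KLK9 on the log2 scale, with adjusted p of 0.0056, 0.059, 0.00083 and 0.0061 by edgeR. KLK6 lost the call in 7 of 17 alternatives, DESeq2 among them. For KLK10 the difference was -2.25. It was not tested, since the gene was chosen for it, and every knockdown library lay above its controls after siRNA and below them after shRNA. The 2 designs differ in delivery, selection, duration and table, and these cannot be told apart.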

How the results depend on the processing

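In the main fits 3.41% of all genes passed after siRNA, 60.6% after shRNA and 34.8% for the difference. The number of kallikreins past the threshold after siRNA, in a count that includes KLK10, was 3 and became 1 at adjusted p under 0.05 and 1 with the replicate block. KLK10 is also in the kallikrein counts for shRNA and for the difference, and KLK14 can be in those for the difference, so they are no test of the set. Leaving out 1 library at a time gave 1 to 3 after siRNA, with 1 left without siRNA control replicate 1 and 1 without ETS1 siRNA replicate 2, 4 to 7 after shRNA and 4 to 6 for the difference. Replicate numbers did not pair the libraries (correlation of same-numbered deviations -0.54 and -0.20), and the block took the adjusted p of KLK5 and KLK8 after siRNA to 0.20 and 0.24. A crossed pairing, added after seeing the data, gave 3238 genes after siRNA and 10923 after shRNA, with 3 and 6 kallikreins. The count of all genes after siRNA, 502, ranged from 72 without siRNA control replicate 1 to 3238, with 97 under the block, 190 at adjusted p under 0.05, 1466 with no filter, 796 in protein-coding genes with at least 1 TPM, 797 in DESeq2, 2166 with all 8 libraries and 1478 without ETS1 siRNA replicate 1. Near 0, KLK7 after siRNA turned to -0.01 with library size only and with the replicate block, -0.07 without siRNA control replicate 1 and -0.23 without ETS1 siRNA replicate 2, and KLK14 to 0.19 and 0.30 without siRNA control replicate 1 and ETS1 siRNA replicate 1 (range over libraries left out -0.46 to 0.30). The cause was not tested. Counts under about 60 per library limit KLK6, KLK11, KLK13 and KLK14, and also KLK9 in the siRNA control (55 and 58) and in shETS1 (36 and 39).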
